A study of Mus musculus with 12 samples.

Results

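The genes described here are the variable (V) segments of the immunoglobulin kappa light chain, measured by RNA sequencing in pieces of mouse spleen. Every gene of the count table whose GENCODE symbol begins with Igkv and whose biotype is IG_V_gene was taken, which gave 100 of the 32121 genes, in 20 families by the first number of the symbol. No measured value entered that choice. A further 40 Igkv pseudogenes in the table were left out.

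Spleens came from 3 animals labelled VEC-Cre;SB Transposase;onc2, called SB animals 1 to 3, and from 3 animals labelled wild type, called WT animals 1 to 3. All were labelled C57BL/6 and spleen, 2 pieces of each spleen were sequenced, and the labels give no age. Sleeping Beauty is a transposase that cuts onc2, a mutagenic transposon, out of the genome and inserts it elsewhere, and VEC-Cre is a Cre recombinase under the vascular endothelial cadherin promoter. VEC-Cre acts in endothelium and is known to mark blood cells that descend from it, and the share of spleen cells that carried insertions is not given in the sources used here. The pieces are called section 1 and section 2 in SB spleens and section A and section B in WT spleens, and A is treated here as piece 1 and B as piece 2. The stated purpose of the study was to learn whether both pieces of a spleen give the same transcriptome, as a reading of clonality.

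A kappa chain gene is assembled in each developing B cell when the RAG recombinase joins one of many V segments to one of a few J segments (Igkj), and the joined exon is spliced to the constant gene Igkc. A B cell, its daughters and the plasma cells that arise from it usually use the same V segment, so V gene RNA in a spleen reads out which B lineage cells are present, weighted by how much light chain RNA each makes. Naive follicular B cells carry many different V segments at low RNA levels per cell, whereas plasma cells carry a few at high levels. In RNA from a piece of tissue, fewer cells and less RNA per cell cannot be told apart, and this holds for every lower level below.

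The V segment encodes the antigen-binding domain up to the third complementarity-determining region (CDR3), the loop that starts after a conserved cysteine and is completed by the J segment. The germline ends of 8 segments are shown because they led the usage of one genotype or the other, or fell most. They run from 2 codons before that cysteine to the end of the segment, 5′ to 3′ on the coding strand, with the cysteine codon in capitals (GENCODE release 21, GRCm38 build).
Igkv5-39, chr6:69900424-69900455 (-), most used over the WT animals: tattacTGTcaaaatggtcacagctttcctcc
Igkv1-110, chr6:68271236-68271267 (+), the next in WT: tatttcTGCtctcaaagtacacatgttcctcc
Igkv14-126, chr6:67896611-67896642 (+), among the largest falls: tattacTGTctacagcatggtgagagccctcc
Igkv3-4, chr6:70672346-70672377 (+), most used over the SB animals: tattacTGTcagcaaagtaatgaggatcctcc
Igkv6-32, chr6:70074024-70074055 (-), second in share in SB animal 1: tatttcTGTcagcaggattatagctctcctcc
Igkv12-46, chr6:69764523-69764554 (-), highest share in SB animal 2: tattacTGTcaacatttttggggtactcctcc
Igkv12-41, chr6:69858420-69858451 (-), a relative of Igkv12-46: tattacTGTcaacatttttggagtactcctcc
Igkv12-44, chr6:69814631-69814662 (-), another relative: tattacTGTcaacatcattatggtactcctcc

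The V segments lie at chr6:67555497-70704177, 38 on the plus strand and 62 on the minus strand, with 338 to 501 exonic bases each. Many are close copies, and the best match of a member to another member had a median identity of 94.5% (71.7% to 98.7%), with 47 members at 95% or more. Igkv2-137 alone shares exonic bases with another annotated gene, the long noncoding RNA Gm42889. The last 120 bases of the most used segment in SB spleens and of its nearest copy show how little separates such a pair, with the 4 differing positions in capitals.
Igkv3-4, chr6:70672258-70672377 (+): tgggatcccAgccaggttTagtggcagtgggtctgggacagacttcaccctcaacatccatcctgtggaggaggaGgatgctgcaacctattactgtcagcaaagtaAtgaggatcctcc
Igkv3-3, chr6:70687415-70687534 (+): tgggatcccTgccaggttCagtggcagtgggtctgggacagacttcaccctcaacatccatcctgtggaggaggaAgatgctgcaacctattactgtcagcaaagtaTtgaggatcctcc
A read that lies within these 120 bases and spans none of the 4 positions fits both genes. Other differences lie outside this stretch, as the pair is 94.2% identical over 359 aligned bases. Somatic mutation, which B cells add to V segments, can move a read from one copy to the other. How reads that fit several copies were counted is not given in the sources used here. Values of single members with near copies are therefore uncertain, while family sums are less exposed.

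The libraries held 14320833 to 22031026 counts. Marker lists of the cells a spleen can hold also differed. All 10 mature B cell markers were lower in SB spleens, with summed levels of 69.0 to 183 CPM (counts scaled to a common library size) against 8452 to 10982 in WT. Plasma cell markers summed to 277 to 944 CPM against 1608 to 2823, with 2 of 8 lower (Mzb1 and Irf4), and 4 of 6 T cell markers were lower. Of 6 erythroid markers 2 were higher, Gata1 from 37.1 ± 17.03 to 221 ± 143 CPM and Tfrc from 233 ± 85.3 to 1041 ± 578 (SD, n = 3 each), and the list had a median log2 of 2.00 and summed to 2542 to 35609 CPM in SB and 13623 to 49246 in WT. The part of these cells in the values below was not tested. All 5 spleen tissue genes were detected in both genotypes, and 1 of them, Nkx2-3, was lower in SB (log2 -1.18, SE 0.24). H2-Ea-ps, a class II gene that the b haplotype of C57BL/6 mice is known not to express, stood at 86.8 to 97.5 CPM in WT and 0.0971 to 0.242 in SB animals, so a strain difference and the genotype cannot be told apart, and V segments too can differ between strains.

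Kappa V RNA took a far smaller part of the SB libraries. In SB animals 1 to 3 the summed members held 0.0164%, 0.0678% and 0.0310% of all counts, a mean of 0.0384 ± 0.0265% (SD, n = 3), against 0.280%, 0.240% and 0.225% in WT animals 1 to 3, a mean of 0.248 ± 0.0284% (SD, n = 3). SB animal 2 was the highest of its genotype, and without it the SB mean was 0.0237%. In CPM the pieces summed to 186 and 124 (SB animal 1), 815 and 733 (SB animal 2) and 320 and 259 (SB animal 3). The 6 WT libraries lay between 2075 and 2939 CPM, so no SB library came near the WT range. The counts behind these sums were 1993 to 14209 per SB library and 34752 to 53592 per WT library, which sets the precision of every SB share below.

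**Figure D1:**
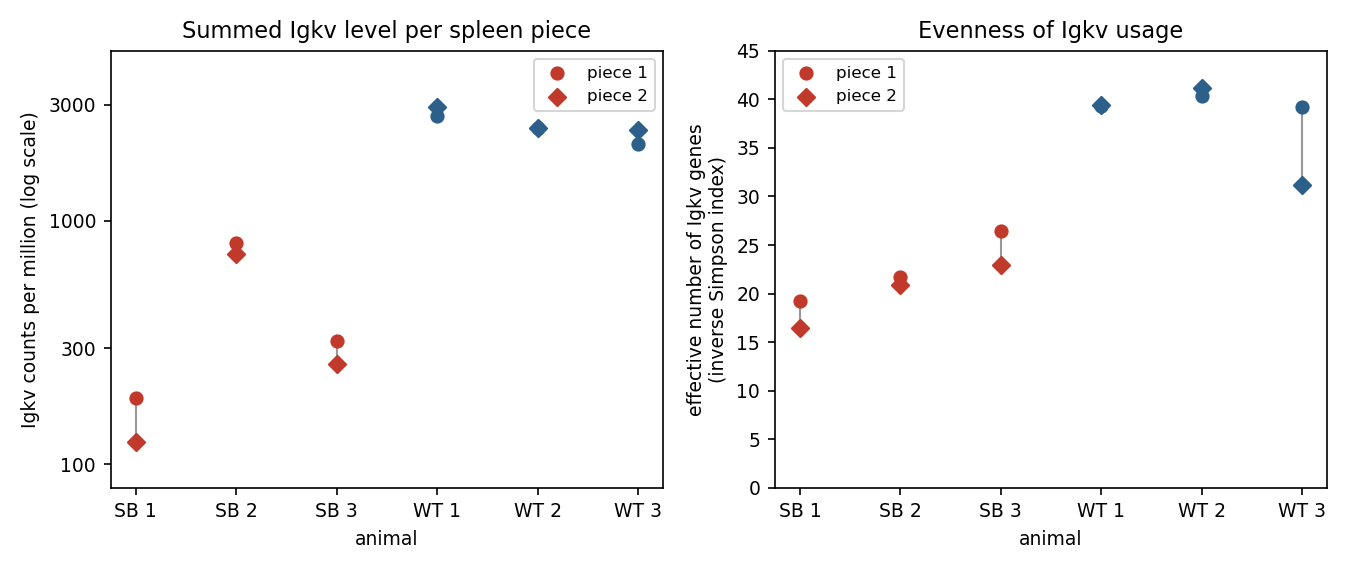
Left: summed Igkv level in CPM (log scale) of each spleen piece, joined per animal. Right: inverse Simpson index of Igkv usage, a measure of how many genes share the counts. SB pieces lie at 124 to 815 CPM and WT pieces at 2075 to 2939, and on the right SB pieces lie at 16.4 to 26.4 and WT pieces at 31.1 to 41.2.

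Gene by gene, 93 members had enough counts to be tested between genotypes, and 60 of them were lower in SB spleens, 0 were higher and 33 did not pass (edgeR quasi-likelihood test, Benjamini-Hochberg adjusted p under 0.05 over all genes). Over all 17328 genes tested, 18.3% were called, 9.75% as lower in SB and 8.59% as higher. The median log2 change of the tested members was -3.42, and that of all tested genes was 0.110. At an unadjusted p under 0.05, 71 members passed, against 35.6% of all genes. In 73 members all SB animals lay below all WT animals, an order found in 23.7% of all tested genes. DESeq2 called 75 of the 95 members to which it gave an adjusted p, all lower, against 24.9% of all genes. Of the 60 called members, 28 were called in each of the 6 fits that left out an animal. The count was 30, 28 and 31 without WT animal 1, 2 or 3, where 4.56%, 3.07% and 3.53% of all genes were called.

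Most of the V segments that led in WT spleens fell. Igkv5-39 (ENSMUSG00000076569, chr6:69900424-69900977), the most abundant per kilobase in WT at 445 CPM per kb, stood at 185, 188, 64.8, 63.0, 171 and 273 CPM in the WT pieces and at 12.6, 3.47, 26.8, 29.2, 4.05 and 3.10 in the SB pieces (pieces 1 and 2 of animals 1, 2 and 3). No SB piece reached the lowest WT piece, although WT animal 2 had less of it than the other WT animals. Its log2 change was -3.52 (SE 0.88, edgeR adjusted p = 0.0435), and the call was kept only when SB animal 2 was the animal left out. Igkv1-110, a family 1 segment at chr6:68270485-68271267, stood at 164, 178, 189, 185, 91.5 and 100 CPM in the WT pieces and between 2.54 and 16.3 in the SB pieces, which is -4.11 on the log2 scale (SE 0.51, edgeR adjusted p = 0.0072). The groups did not overlap. Igkv1-110 and Igkv1-117 are 97.5% identical, and Igkv1-117 fell as well, from 92.1 ± 23.2 to 4.38 ± 1.04 CPM (SD, n = 3 each).

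Igkv9-120 fell from 80.7 ± 24.1 CPM in WT to 2.94 ± 0.364 in SB (SD, n = 3 each), or -4.78 on the log2 scale (SE 0.29, edgeR adjusted p = 0.0014), and its 6 SB pieces kept within 2.05 to 4.03 CPM. Of the 10 segments with the highest mean share in WT, 8 were called lower, of which Igkv1-135 lost its call without SB animal 3 or WT animal 1, 2 or 3. The others were Igkv6-15, at 90.3 ± 19.2 CPM in WT and 8.82 ± 7.38 in SB (edgeR adjusted p = 0.0504), and Igkv19-93, at 71.1 ± 39.4 and 7.84 ± 8.13 CPM (edgeR adjusted p = 0.0581). Both had SB pieces well below every WT piece, and in Igkv6-15 the SB pieces spread from 0.994 to 16.2 CPM.

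Among called members with at least 5 CPM in WT, the largest falls were those of Igkv6-13 (log2 -5.60, SE 0.80), Igkv14-100 (-5.39, SE 0.38), Igkv2-112 (-5.22, SE 0.75), Igkv14-126 (-5.20, SE 0.50) and Igkv3-1 (-4.96, SE 1.20). Igkv14-100 stood at 28.6 ± 5.14 CPM in WT and 0.678 ± 0.254 in SB (SD, n = 3 each). Igkv6-13 and Igkv3-1 were uneven among WT pieces, from 7.82 to 43.5 and from 6.11 to 54.3 CPM. The call of Igkv3-1 was lost without any animal but SB animal 2, and those of Igkv6-13 and Igkv2-112 without WT animal 2. The smallest falls among such members were those of Igkv8-28 (log2 -2.30, SE 0.48), Igkv15-103 (-2.41, SE 0.59), Igkv3-10 (-2.59, SE 0.62), Igkv6-23 (-2.66, SE 0.60) and Igkv8-30 (-2.88, SE 0.50). Of these, Igkv8-30 lost its call without WT animal 1, 2 or 3, Igkv8-28, Igkv15-103 and Igkv6-23 also without SB animal 3, and Igkv3-10 also without SB animal 1 or 3. Even the smallest of these called falls left Igkv8-28 at 7.98 ± 3.95 CPM in SB against 39.3 ± 11.1 in WT.

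Some members were hardly counted in SB spleens. Igkv18-36, the only member of family 18, had 0 counts in the 6 SB libraries and 103 in the 6 WT libraries, so it was at least 38.5-fold lower by a floor of 3 counts over the SB group. Igkv4-54 had 3 counts in SB and 100 in WT, a ratio of 37.3 in CPM with a counting interval of 12.4 to 184. Of the 7 members too low to test, Igkv6-29, Igkv8-26 and Igkv1-35 had 0 counts in SB and 27, 9 and 6 in WT. All 100 members had a count in each WT animal, and 91, 93 and 91 had a count in SB animals 1 to 3.

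**Figure D2:**
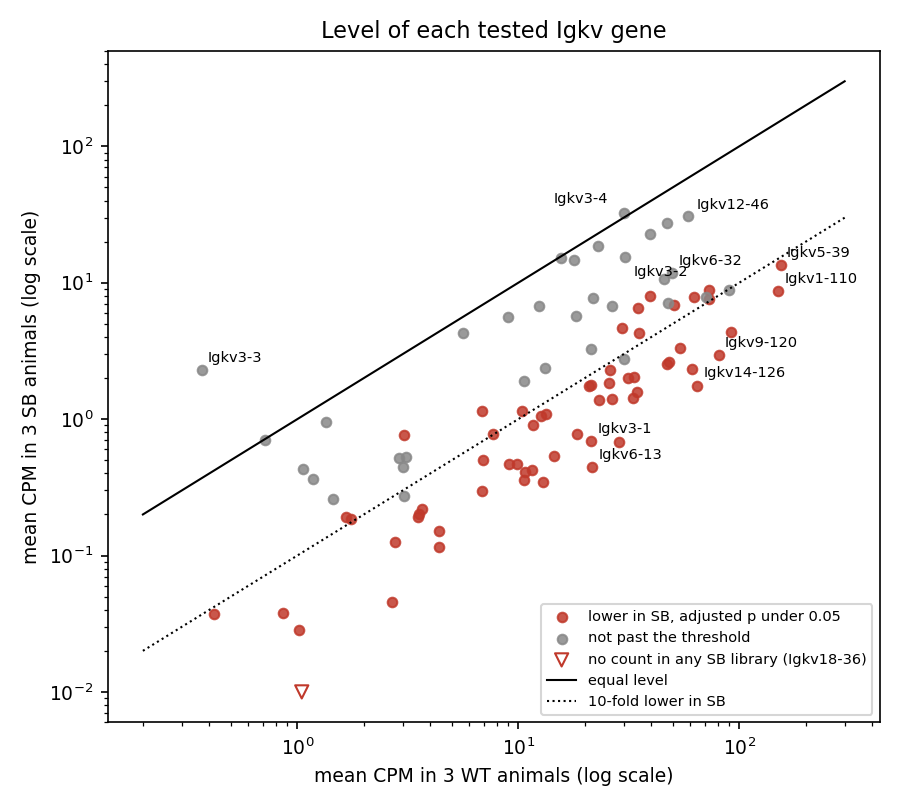
Mean CPM of each tested Igkv gene in 3 WT animals (x) and 3 SB animals (y), both on log scales, coloured by the edgeR call, with lines for equal level and for a 10-fold lower level. Igkv18-36, without a count in SB, is drawn as an open triangle at the bottom. Most of the 93 points lie between or below the lines, Igkv3-4 lies on the line of equal level, and Igkv3-3 lies above it.

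Igkv3-4 did not follow the other abundant segments. This family 3 segment (ENSMUSG00000096715, chr6:70671788-70672377) stood at 27.8, 16.3, 48.8, 41.6, 38.9 and 19.5 CPM in the SB pieces and at 31.3, 51.6, 26.1, 24.97, 26.0 and 19.9 in the WT pieces. The ranges cover each other, and the log2 change was 0.10 (SE 0.35, edgeR adjusted p = 0.863). Its direction was not stable, with -0.31 from piece 2 alone, -0.21 without SB animal 2, -0.025 without WT animal 2 and -0.076 without WT animal 3. Because the sum of all members was so much lower in SB, its share of Igkv counts was 14.3%, 5.81% and 10.1% in SB animals 1 to 3 against 1.502%, 1.06% and 1.06% in WT, 10.1 ± 4.23% against 1.21 ± 0.256% (SD, n = 3 each). It ranked 1 by CPM per kb in SB and 29 in WT. Its near copy Igkv3-3, 94.2% identical, was low, at 4.47 and 7.99 CPM in the pieces of SB animal 2 and at no more than 0.603 CPM in any other piece. Igkv3-3 had the highest log2 change of the tested members, 2.61, which rested on SB animal 2 and was not called. Igkv3-3 and Igkv3-4 were the only 2 tested members with a log2 change above 0.

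Family 3, to which Igkv3-4 belongs, took a larger share in every SB animal than in any WT animal. It held 24.4%, 11.7% and 18.4% of Igkv counts in SB animals 1 to 3 and 6.24%, 4.28% and 4.23% in WT, 18.2 ± 6.39% against 4.92 ± 1.15% (SD, n = 3 each). In CPM the family was still lower in SB, 60.8 ± 26.1 against 123.3 ± 45.4, or 2.03-fold. The ratio was 2.17 for family 12 and 1.12 for family 13, and the other families with a count in SB were 5.32- to 26.4-fold lower. The SB means of families 12 and 13 rest on SB animal 2, at 206 and 83.2 CPM. In SB animals 1 and 3 family 12 stood at 9.15 and 32.4 CPM and family 13 at 4.32 and 1.97. With Igkv3-4 taken out of both family 3 and the total, the family 3 share was 11.8%, 6.21% and 9.21% in SB and 4.81%, 3.26% and 3.20% in WT. The animals again did not overlap. Igkv3-2 carried much of the rest, at 15.4 ± 9.93 CPM in SB and 30.4 ± 7.70 in WT (log2 -0.98, SE 0.49, edgeR adjusted p = 0.207). Family 3 was not uniform, since 3 of its 8 tested members (Igkv3-1, Igkv3-10 and Igkv3-12) were called lower. Igkv3-12 stood at 0.903 ± 0.501 CPM in SB and 11.7 ± 1.64 in WT.

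Families 1 and 9 held smaller shares in every SB animal than in any WT animal. Family 1, which holds Igkv1-110 and Igkv1-117, took 13.6%, 17.1% and 12.3% of Igkv counts in WT animals 1 to 3 and 8.17%, 6.50% and 8.46% in SB, and its level was 12.1-fold lower. Family 9 held 8.34%, 5.11% and 4.22% in WT and 2.32%, 1.17% and 1.48% in SB, and its level was 26.4-fold lower. Families 2, 16 and 18, each under 3% of WT counts, were also lower in share in all SB animals. These are descriptions of 3 against 3 animals, without a test.

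By family, the members called lower were 6 of 8 tested in family 1, 3 of 3 in family 2, 3 of 8 in family 3, 18 of 25 in family 4, 4 of 5 in family 5, 4 of 8 in family 6, 6 of 9 in family 8 and 3 of 4 in family 9. Family 14 had 4 of 4 called, family 10 had 2 of 3, family 12 had 3 of 6 and family 13 had 0 of 2. The other families held 1 or 2 members each. Families 4, 5, 6, 8, 10, 12, 13 and 14 overlapped between genotypes in share.

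**Figure D3:**
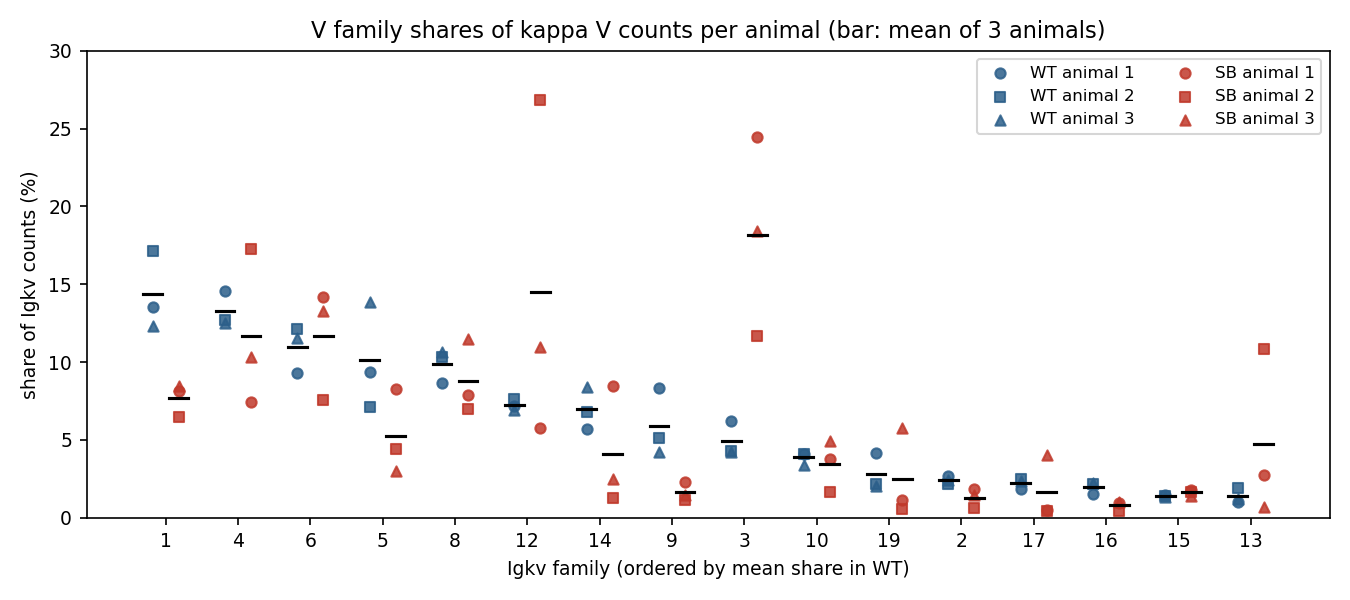
Share of Igkv counts (%) held by each V family, ordered by the WT mean, with a point per animal and a bar at the mean of 3 animals. Family 3 lies higher in all SB animals (11.7% to 24.4%) than in WT (4.23% to 6.24%), families 1 and 9 lie lower, and family 12 is spread from 5.80% to 26.8% over the SB animals.

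More segments differed among the SB spleens than among the WT spleens, and these counts were not tested against each other. Of 89 members tested, 61 (68.5%) differed among the 3 SB animals, against a background of 72.9% of all genes (edgeR F test, adjusted p under 0.05, with error from the 2 pieces of a spleen, so the p-values compare these spleens only). The members' share was thus no higher than that of other genes. Of the 61, 44 were highest in SB animal 2, 15 in SB animal 3 and 2 in SB animal 1. When the SB libraries were fitted alone, 19 of 31 tested members (61.3%) were called, against 72.6% of all genes. Among the 3 WT animals 6 of 89 members (6.74%) differed, against 0.470% of all genes. All 6 were highest in WT animal 1. They were Igkv1-88, Igkv19-93, Igkv2-112, Igkv3-1, Igkv4-68 and Igkv9-124. Igkv3-1 stood at 45.8 and 54.3 CPM in WT animal 1 and at 6.11 to 8.19 in the other WT pieces (edgeR adjusted p = 1.31e-05).

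SB animal 2 was marked by families 12 and 13. Family 12 took 26.8% of its Igkv counts, against 5.80% and 10.99% in the other SB animals and 6.92% to 7.65% in WT. Igkv12-46 reached 89.7 and 81.5 CPM in its pieces, above all WT pieces (29.9 to 75.6), while the pieces of SB animals 1 and 3 lay at 1.58 to 7.94. It held 11.1% of the counts of SB animal 2 (95% Clopper-Pearson interval 10.7% to 11.5%). Igkv12-41, at 60.2 and 52.4 CPM, and Igkv12-44, at 53.7 and 71.7, stood within the WT ranges of 16.01 to 63.5 and 35.9 to 80.9. Igkv4-57-1 was at 59.1 and 41.5 CPM there and at 12.3 to 35.5 in WT.

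The only 2 members of family 13 showed the same order. Igkv13-85 stood at 48.7 and 39.4 CPM in the pieces of SB animal 2 and at 9.26 to 27.1 in WT. Igkv13-84 stood at 46.9 and 34.9 CPM in that animal and at 11.96 to 25.6 in WT. In SB animals 1 and 3 neither passed 4.03 CPM. These genes and the family 12 segments above all differed among SB animals (edgeR adjusted p from 1.36e-08 for Igkv13-85 to 8.63e-05 for Igkv12-44). None was called between genotypes. The genotype means of family 12 rest on SB animal 2, whose removal took the SB mean share from 14.5% to 8.39%, and that of family 13 from 4.75% to 1.70%. Igkv4-57-1 had a genotype log2 change of -0.31 (SE 1.18), which was 0.24 without SB animal 1, 0.13 without SB animal 3 and -2.77 without SB animal 2.

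Below Igkv3-4, which led in both, SB animals 1 and 3 had Igkv6-32 in common, at rank 2 and rank 3 by share. They differed in several other segments with a large share. In SB animal 1, Igkv6-32 (chr6:70074024-70074603) held 10.1% of Igkv counts (95% interval 9.30% to 10.9%), against 0.438% and 5.48% in SB animals 2 and 3 and 1.27% to 2.62% in WT. Its level there was 14.02 and 18.1 CPM, below the 31.9 to 67.3 CPM of WT pieces, so the high share came with a low level. Igkv14-111 held 6.89% of the counts of SB animal 1 and 2.17% to 3.93% in WT. In SB animal 3, Igkv19-93 held 5.80% (5.39% to 6.23%), against 1.17% and 0.596% in the other SB animals and 2.03% to 4.14% in WT. Igkv3-5 held 4.48% there, and its 16.8 and 9.06 CPM in that animal were near the WT range of 7.18 to 13.2, while the other SB pieces lay at 1.13 to 2.20. Igkv17-127 held 2.55%.

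Usage was less even in SB spleens. The inverse Simpson index was 19.1, 21.4 and 28.5 in SB animals 1 to 3 and 39.6, 41.2 and 35.5 in WT, 23.0 ± 4.86 against 38.8 ± 2.93 (SD, n = 3 each). The genotypes did not overlap by animal or by library, and a form of the index that corrects for the number of counts gave 23.1 and 38.8. To reach 50% of the counts took 7, 8 and 11 segments in SB animals and 15, 16 and 15 in WT. The most used segment was Igkv3-4 in SB animals 1 and 3 and Igkv12-46 in SB animal 2, with 10.1% to 14.3% of counts. In WT it was Igkv5-39 or Igkv1-110, with 6.59% to 9.82%. The 10 leading segments of the genotypes shared 3 genes, Igkv5-39, Igkv14-111 and Igkv10-96, and the WT list held 37.1% of WT counts and 21.6% of SB counts.

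The pieces of a spleen were alike in kappa V usage in WT and less so in 2 of the 3 SB animals. Usage overlap, the sum over members of the lower of the shares of a pair of libraries, was 93.5%, 90.1% and 89.4% between the pieces of WT animals 1 to 3, and 75.1%, 89.9% and 65.7% in SB animals 1 to 3. Between pieces of different animals it was 75.4% to 85.3% in WT and 46.6% to 60.5% in SB, over 12 pairs each, and between SB and WT pieces 44.8% to 65.8% over 36 pairs. The pieces of each SB spleen were thus closer to each other than any of the SB pairs across animals. This did not hold against WT pieces for SB animal 3. Its section 1 overlapped section A of WT animal 1 by 65.8%, as much as its own section 2 (65.7%). Overlap falls with fewer counts, and the pieces of SB animal 1 had 3562 and 1993 Igkv counts. Against counting noise, chi-square per degree of freedom between pieces was 10.01, 6.26 and 30.1 in SB and 9.12, 16.4 and 14.3 in WT, over members with at least 20 counts. All spleens exceeded the value of about 1 that counting alone gives, SB animal 3 by the most, although this measure also grows with depth.

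In SB animals 1 and 3 the leading segment was Igkv3-4 in section 1 and Igkv6-32 in section 2. In SB animal 3, Igkv3-4 held 12.2% of Igkv counts in section 1 and 7.51% in section 2, whereas Igkv6-32 went from 2.53% to 9.34%, Igkv12-44 from 2.65% to 8.31% and Igkv6-15 from 1.43% to 5.65%. In SB animal 1, Igkv3-4 held 14.9% and 13.1%, while Igkv6-32 went from 7.52% to 14.7% and Igkv12-46 from 1.26% to 6.42%. In SB animal 2 Igkv12-46 held 11.01% and 11.1%. In WT animal 3 Igkv5-39 went from 171 to 273 CPM. These are single pieces, and no replicate stands behind a difference within a spleen.

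**Figure D4:**
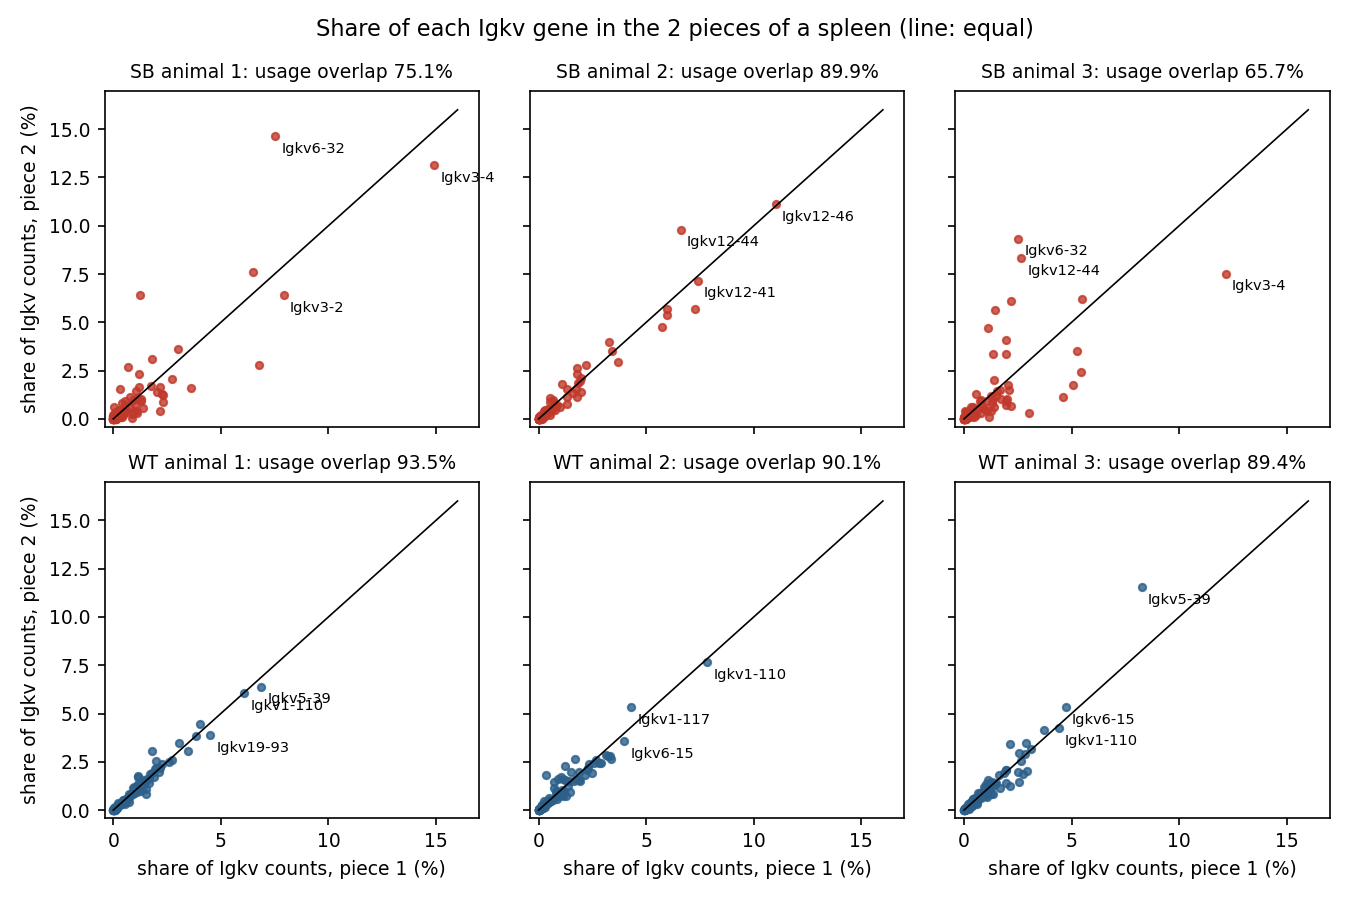
Share of Igkv counts (%) of each gene in piece 1 (x) and piece 2 (y), a panel per spleen, with the line of equal share and the usage overlap above each panel. Points of WT spleens and of SB animal 2 follow the line (overlap 89.4% to 93.5%), and those of SB animals 1 and 3 scatter (75.1% and 65.7%).

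Over all animals of a genotype, 0 of 89 tested members differed between sections in SB (edgeR with the animal as a block), where 0.00644% of all genes were called, and 0 of 89 in WT, where 9.75% were called. At an unadjusted p under 0.05, 23 members (25.8%) passed in SB, against 22.0% of all genes, and 12 (13.5%) in WT, against 28.1%. Of the 23, 22 were lower in section 2. The median log2 difference of the members, section 2 against 1, was -0.42 in SB and 0.09 in WT, and that of all genes was -0.00192 in SB. Fitted without SB animal 2, 8 of 91 members (8.79%) were called in SB, against 4.42% of all genes. For WT sections, 5 of 91 (5.49%) were called without SB animal 1, against 20.7% of all genes. When the WT libraries were fitted alone, 12 of 84 (14.3%) were called, against 22.7% of all genes.

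The section difference itself differed between genotypes for 2 of 89 members, against 1.37% of all genes. Igkv1-117 went from 6.75 to 1.98, 6.37 to 4.54 and 4.24 to 2.12 CPM from section 1 to 2 in the SB animals, and from 82.7 to 102, 104 to 129 and 64.8 to 74.8 CPM from A to B in WT. It was lower in the second piece in 3 of 3 SB spleens and higher in 3 of 3 WT spleens (log2 difference -1.30, SE 0.23, edgeR adjusted p = 0.0391). Igkv12-89 (-3.59, SE 0.74, edgeR adjusted p = 0.0456) rested on SB animal 3, with 3.77 and 0.197 CPM, since the other SB pieces held no more than 0.293 CPM. No member was called without SB animal 3, WT animal 2 or WT animal 3. In these fits 0 of 15788, 0 of 16209 and 0 of 15984 genes were called, so the loss was not particular to the members. Without WT animal 1, 4 of 89 members (4.49%) were called, against 3.41% of all genes. Without SB animal 2, 7 of 91 (7.69%) were called, against 1.94%.

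Shares also differed by position along the locus. Members were put in 4 groups of 25 by distance from Igkj1. The group farthest from the J segments, 2180 to 3166 kb away, held 24.01%, 11.9% and 19.3% of Igkv counts in SB animals 1 to 3 and 33.6%, 36.7% and 32.2% in WT. The nearest group, 18.4 to 583 kb away, held 34.5%, 24.3% and 35.4% in SB and 20.7%, 21.6% and 22.3% in WT. The animals did not overlap in either group, and they overlapped in both middle groups. Igkv3-4 lies 50.2 kb from Igkj1 and is part of the nearest group. It alone held 14.3%, 5.81% and 10.1% of Igkv counts in SB animals 1 to 3 and 1.502%, 1.06% and 1.06% in WT. With Igkv3-4 taken out, the nearest group's share in SB animal 2 falls below that of WT animals 2 and 3. The animals then overlap, so the separation of the nearest group by animal depended on this gene. Of tested members, 11 of 22 in the nearest group, 17 of 24 and 14 of 24 in the middle groups and 18 of 23 in the farthest were called lower. Segments on the plus strand, which point the same way as the J segments and so join by deletion, held 41.2 ± 10.1% of counts in SB and 40.3 ± 2.90% in WT (SD, n = 3 each).

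**Figure D5:**
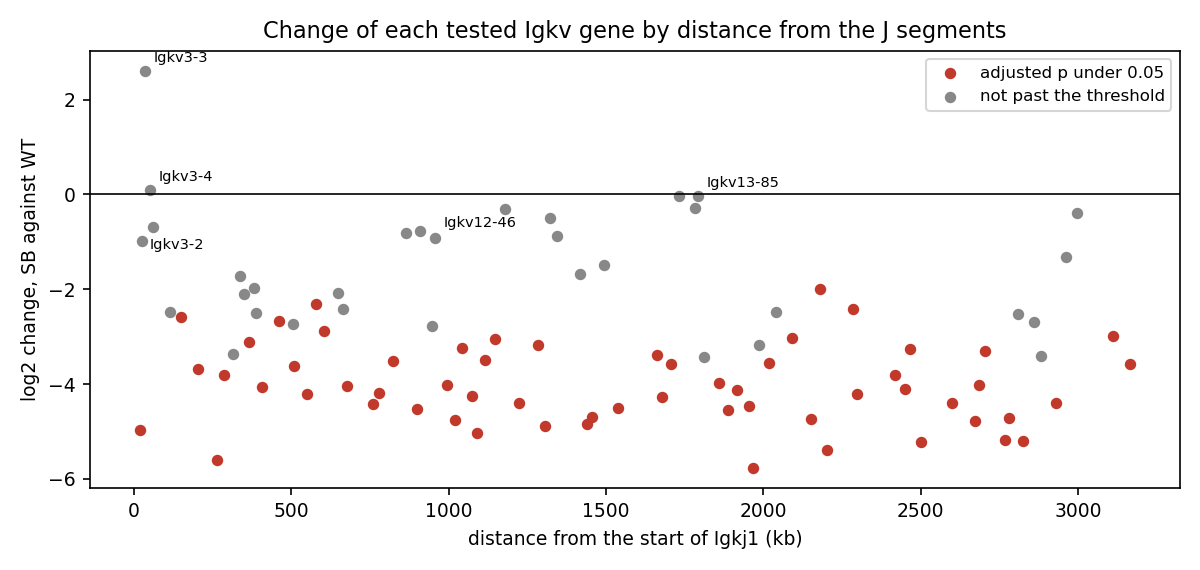
Log2 change of each tested Igkv gene, SB against WT, by distance in kb from the start of Igkj1, coloured by the edgeR call, with Igkv18-36 left out because it has no count in SB. Values below 0 are lower in SB. Igkv3-2, Igkv3-3 and Igkv3-4 lie at the J end, and called members lie along the whole locus.

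The partners of the kappa V segments moved less evenly. Igkc, the kappa constant gene, fell from 6409 ± 1144 to 903 ± 801 CPM (SD, n = 3 each; log2 -2.83, SE 0.68, edgeR adjusted p = 0.0388). Igkj1, Igkj2, Igkj3, Igkj4 and Igkj5 were all called lower, with log2 changes of -3.11, -2.94, -3.91, -2.98 and -3.27. Igkv counts per Igkc count were 0.443, 0.421 and 0.556 in SB animals and 0.370, 0.377 and 0.412 in WT. In all, 12 of 14 tested genes of the kappa and lambda chain list were lower. The others were Iglc1 (log2 -1.70, SE 1.54, edgeR adjusted p = 0.470) and Iglv1 (-1.47, SE 1.45), the lambda pair that was high in SB animal 2. Lambda constant genes made up 3.10%, 12.9% and 2.41% of light chain constant counts in SB animals 1 to 3 and 11.1%, 15.5% and 14.6% in WT.

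Heavy chain constant genes were lower in 5 of 8 cases. Ighd, which marks naive B cells, fell from 2339 ± 191 to 28.8 ± 13.4 CPM (log2 -6.34, SE 0.44). Ighm was at 2037 ± 2629 CPM in SB and 9251 ± 1089 in WT (log2 -2.18, edgeR adjusted p = 0.169). The signalling partners Cd79a and Cd79b were both lower. Mature B cell markers fell with a median log2 of -6.76, further than the -3.42 of the kappa V members, and the plasma cell list had a median of -2.19, with Jchain at 206 ± 230 CPM in SB and 1639 ± 428 in WT (edgeR adjusted p = 0.0645). Which cells held the kappa V RNA left in SB spleens was not tested.

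Of 12 transcription factors known to act on the kappa locus or in B cells, 8 were lower. Spib, Pax5 and Ebf1 fell by 6.71, 6.74 and 6.36 on the log2 scale, and Pou2af1, the coactivator of the octamer factors that bind V gene promoters, by 4.82. Irf4, Ikzf3, Ikzf1 and Pou2f1 were also lower, and Tcf3 stood at 251 ± 11.1 CPM in SB and 272 ± 12.3 in WT. Of 9 tested recombination genes, Rag1 was lower, from 0.565 ± 0.385 to 0.0257 ± 0.0244 CPM (SD, n = 3 each). It had only 3 counts over the SB libraries and 54 over the WT libraries. Section B of WT animal 2 held 1.70 CPM, against 0.165 to 0.482 in the other WT pieces. Hmgb2, a DNA-bending protein that assists RAG and acts widely in dividing cells, was higher, from 33.6 ± 8.25 to 122.6 ± 16.9 CPM (SD, n = 3 each). Of the surrogate light chain genes, Vpreb1 and Igll1 were too low to test, and Vpreb2 was not found in the count table.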

How the data were processed

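The authors deposited unnormalised read counts, by Ensembl gene identifier, for 12 poly-A libraries that carry no strand, per the labels' protocols. The submitters' processing notes name STAR 2.5.3a, limma and the builds mm10 and GRCm38 without their roles. The handling of reads that fit several genes, which matters for V segments, is not given in the sources used here. Symbols, positions and sequences came from GENCODE release 21, which matched 32026 of 32121 identifiers. 0 columns belonged to no sample.

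The animal was the replicate. Counts of both pieces were summed per animal and compared with edgeR 4.0.16 in R 4.3.3 (TMM, filterByExpr, robust quasi-likelihood fit, two-sided), with Benjamini-Hochberg adjustment over all genes and a threshold of 0.05. SE is the log2 change over the root of F. Sections were tested over all 12 libraries, with animal as the block, since the titles name the animal of each piece. No label pairs an SB with a WT animal. The scripts were tested on simulated counts. Shares, overlaps and the inverse Simpson index have no test. Intervals on shares are exact (Clopper-Pearson, 95%) and cover counting error only, as does the floor of 3 counts. Members and lists were chosen with earlier results of these data known.

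Named genes were the 10 highest mean shares in WT and in SB, the 5 largest and 5 smallest called falls from at least 5 CPM in WT, the 3 largest excesses of share in each SB animal, members called by section or higher in SB, Igkc and the Igkj genes. Other members named, such as Igkv13-84, Igkv13-85, Igkv3-3, Igkv12-89, Igkv18-36 and Igkv4-54, were chosen after their values were seen. Alternatives were other size factors, no filter, DESeq2 1.42.0, single pieces, left-out animals, no block and separate fits. The older edgeR quasi-likelihood method was added after seeing the data.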

Additional observations from a re-analysis of the deposited data

Results flagged for a closer look

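Of 82 sets of library values examined, 5 held a piece far from the other 5 of its genotype by Dixon's criterion, which chance gives in about 1 in 20 sets, and pieces of a spleen are not independent. Igkv6-13 was at 1.46 CPM in section 1 of SB animal 2. Section B of WT animal 3 stood apart for the inverse Simpson index (31.1), Igkv12-44 (80.9 CPM) and Igkv3-5 (13.2 CPM), and section B of WT animal 1 for Igkv3-4 (51.6 CPM).

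The section difference differed between genotypes by test for Igkv1-117 (log2 -1.30) and Igkv12-89 (log2 -3.59). For 3 families, all SB spleens moved one way between pieces and all WT spleens the other way, and this difference was not tested. The share of family 4 changed by -3.69, -0.515 and -4.03 percentage points from section 1 to 2 in SB animals 1 to 3 and by 0.520, 1.24 and 0.400 in WT, a difference of means of -3.46. Family 12 changed by 4.58, 3.06 and 7.65 in SB and by -0.277, -1.19 and -0.331 in WT, a difference of 5.69. Family 15, which is Igkv15-103 alone, changed by -0.644, -0.188 and -1.21 in SB and by 0.163, 0.338 and 0.155 in WT, a difference of -0.899.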

How the results depend on the processing

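Left-out animals moved the count of 60 members lower in SB between 28 and 78, with 30, 28 and 31 without WT animal 1, 2 or 3 and 78 without SB animal 2. Calls over all genes moved too, from 3178 of 17328 in the main fit to 6409 of 17949 without SB animal 2. The other settings gave 52 (piece 1 alone) to 75 (DESeq2), where 2950 of 15588 and 5523 of 22188 genes were called. Between SB sections the count of 0 became up to 8 (without SB animal 2). Between WT sections it was 0 to 5 with an animal left out (5 without SB animal 1). That count was 1 with relative log expression (RLE) size factors in edgeR and 12 in WT libraries alone. The 2 members whose section effect differed between genotypes ranged from 0 to 7 with an animal left out (7 without SB animal 2). The left-out fits that called 0 members here also called 0 of all genes. Without the replicate block, which pairs the pieces of an animal, the count of members whose section effect differed was 0. No gene at all was then called in any section comparison. With the block, 1514 of 15523 genes were called between WT sections and 212 for the difference of section effects. The member counts between SB sections and between WT sections were 0 with and without the block. The 61 members that differed among SB animals were 19 when SB libraries were fitted alone, where 31 members passed the filter. The log2 change of Igkv3-4 turned to -0.31 in piece 2 alone and ranged from -0.21 to 0.41 with an animal left out, and that of Igkv4-57-1 was 0.24 in piece 1 alone and -2.77 to 0.24 with an animal left out. Without the most used gene of each animal, family 3 held 11.4% in SB, family 12 held 7.89% in WT and family 5, which holds Igkv5-39, went from 10.1% to 5.06% in WT. The Bhattacharyya coefficient, another overlap measure, gave medians of 94.2% within SB spleens, 79.7% between SB animals, 99.1% within WT spleens and 96.8% between WT animals. Where no cause is given above, the cause was not tested. Of 364 alternative log2 changes of 28 named genes, 299 kept direction and call, 42 lost the call, 16 gained it and 7 turned direction. SB shares rest on as few as 1993 Igkv counts per library.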
